A study of Homo sapiens with 6 samples.

Results

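The genes described here encode 10 plasma membrane carriers of amino acids: the light chain of LAT1 (SLC7A5), the heavy chain it shares with other carriers (SLC3A2), the light chain of the cystine carrier xCT (SLC7A11), the y+LAT2 light chain (SLC7A6), the cationic carriers SLC7A1 and SLC7A2, the neutral exchangers SLC1A4 and SLC1A5, the acidic amino acid carrier SLC1A3 and the facilitated neutral carrier SLC43A1. The list was drawn up with earlier results of these data known. Its members were found by symbol, with no measured value in the rule, and all 10 were among the 58395 genes of the deposited table. RNA was sequenced in 6 libraries of 786-O, an established human clear cell renal carcinoma line. In 3 of them PLOD2, the gene of a collagen lysyl hydroxylase, had been targeted with CRISPR/Cas9 (sgPLOD2), and the other 3 carried a control guide (sgControl). Both groups were grown in RPMI-1640 with 10% fetal bovine serum, and no drug treatment is given in the labels. The labels do not say whether the sgPLOD2 cells are 1 clone or a pool, nor whether the replicates are independent cultures. P-values therefore measure the spread of these libraries only, and it may be technical.

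Some of these amino acid carriers work in pairs and in exchange. SLC3A2, also called 4F2hc or CD98, is a single-pass glycoprotein that brings light chains such as SLC7A5, SLC7A6 and SLC7A11 to the cell surface. SLC7A5 then takes up leucine and other large neutral amino acids against outgoing amino acids, and leucine is a signal to the growth kinase complex mTORC1. SLC7A11 exchanges glutamate for cystine, the source of cysteine for glutathione. Several of these genes are known targets of ATF4, the transcription factor of the integrated stress response, and SLC7A11 is also a known target of NRF2. In renal carcinoma lines without VHL, the hypoxia factor HIF-2α is known to act on SLC7A5.

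PLOD2 had 5.98, 10.1 and 6.64 FPKM, a level scaled to gene length and to the mapped fragments of the library, in sgPLOD2, against 26.8, 25.7 and 21.5 FPKM in sgControl. Its mRNA was therefore lower in each sgPLOD2 library, with a limma adjusted p of 0.000509 and an exact 2-sided permutation p of 0.1, the smallest that 3 libraries against 3 allow. The FPKM values summed to 229485 to 238801 per sgPLOD2 library and 243422 to 268612 per sgControl library. Mitochondrially encoded genes held 6.01% to 6.72% of FPKM in sgPLOD2 and 12.9%, 7.5% and 6.96% in sgControl replicates 1 to 3, so sgControl replicate 1 stood apart. The 10 markers of blood, endothelial and liver cells reached at most 0.187 FPKM on average in sgPLOD2 and 0.379 FPKM in sgControl, with CD3E and HBB among those at 0 throughout. Of 8 renal markers 7 were tested, with LHX1, CDH6 and EPAS1 called higher and PAX2 lower, beside 52.9% of all tested genes called. The largest change among these markers was that of LHX1, with 6.63 ± 0.44 FPKM in sgPLOD2 and 1.68 ± 0.14 FPKM in sgControl (SD, n = 3 each). The calls of CDH6 and PAX2 were lost in some alternatives. The lineage factor PAX8, not called, had 24.0 ± 2.35 and 28.0 ± 7.27 FPKM in sgPLOD2 and sgControl (SD, n = 3 each), while CA9, a carbonic anhydrase of clear cell carcinoma, had 0.323 ± 0.042 FPKM in sgPLOD2 and was listed at 0 in every sgControl library. The groups differed widely: of 10469 tested genes, 52.9% were called at an adjusted p under 0.05 (limma, Benjamini-Hochberg), 29.5% higher and 23.5% lower in sgPLOD2. Higher calls made up 55.7% of calls, or 66.8% with FPKM rescaled to TPM (an equal sum in every library), which moved the median change of all tested genes to 0.20, against 0.06 on log2(FPKM + 1). Higher calls made up 49.9% under median-of-ratios scaling and under quantile normalization, 48.5% with chromosome medians removed, 48.1% after removal of the GC and length trend and 45.2% at a minimum of 5 FPKM, so the excess of higher calls was not kept.

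Of the 10 transporter genes, 8 reached the mean of 1 FPKM needed for the test. SLC7A5, SLC3A2 and SLC1A4 fell in sgPLOD2, SLC7A6 rose, SLC43A1 was called higher, and SLC7A11, SLC7A1 and SLC1A5 were not called. That is 5 of 8 against the 52.9% called over all tested genes, so the number called is close to the background and is no result about these genes. The size of the fall in SLC7A5 was less common, since 0.611% of tested genes were called with a fall at least as large. Genes with low levels in sgControl could not fall that far on log2(FPKM + 1), which lowers this share. Of the 8 tested members, 3 were lower and 2 higher without overlap between the groups, beside 62.7% of all tested genes, 34.7% higher and 28% lower. SLC43A1 passed the filter only through its sgPLOD2 libraries, so its call is a description. SLC1A3 and SLC7A2 stayed below it in both groups and are given by their values. All values are averages over the cells of a library, so less mRNA per cell and fewer expressing cells cannot be told apart.

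**Figure D1:**
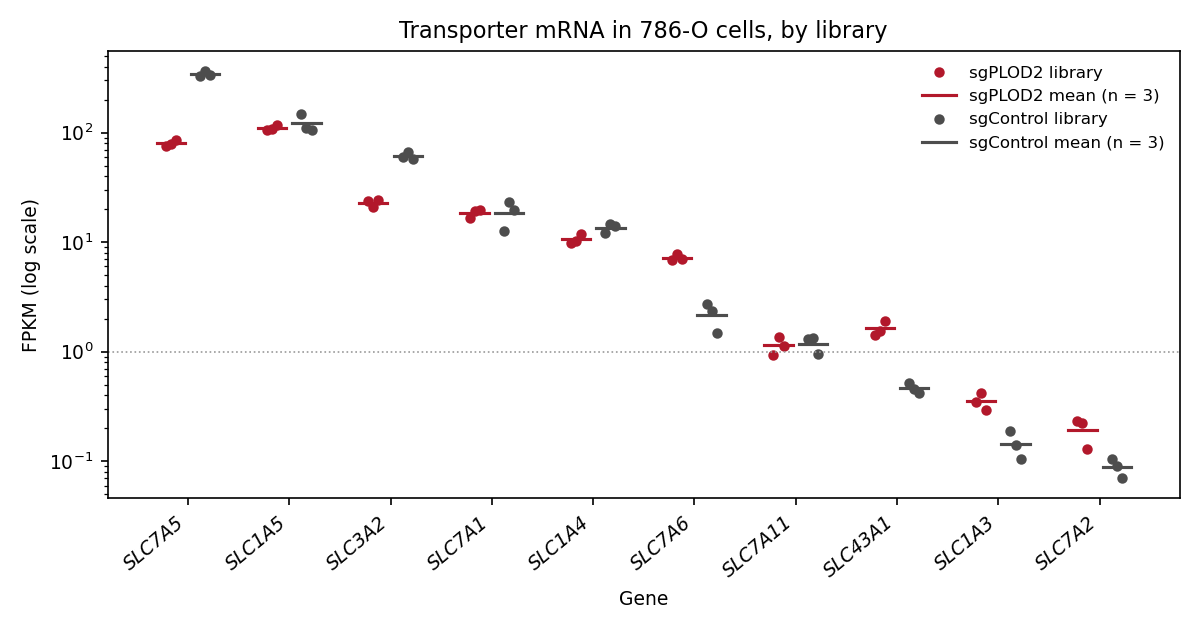
FPKM of the 10 transporter genes on a log axis, with genes in the order of their sgControl mean, sgPLOD2 in red left of sgControl in grey. Points are libraries, bars are means of 3, and the dotted line is 1 FPKM. SLC7A5 and SLC3A2 lie lower in all sgPLOD2 libraries, SLC7A6 and SLC43A1 higher, and SLC7A1, SLC1A5 and SLC7A11 overlap.

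SLC7A5 held most of the summed FPKM of these genes in sgControl, and its level was far lower in sgPLOD2. SLC7A5 (ENSG00000103257; GRCh38, chromosome 16, 87830023 to 87869507, minus strand, protein-coding) had 74.8, 79.2 and 84.7 FPKM in sgPLOD2, against 325, 364 and 336 FPKM in sgControl. The groups lay far apart, and each varied by only 6.23% and 5.8% of its mean. The sgPLOD2 mean of 79.6 ± 4.96 FPKM was 23.3% of the sgControl mean of 342 ± 19.8 FPKM (SD, n = 3 each). On log2(FPKM + 1) SLC7A5 changed by -2.09 ± 0.09 (SE; limma adjusted p = 5.72e-06). Over the 18 alternatives run the change lay between -2.16 and -1.84 and was called each time. The 54 tested genes whose starts lie within 5 Mb of SLC7A5 had a median change of -0.25, the same as chromosome 16 as a whole (-0.25), and 23 of them were called lower and 6 higher.

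SLC3A2, the partner subunit, fell less. SLC3A2 (ENSG00000168003; chromosome 11, 62856102 to 62888875, plus strand) had 23.7, 21.0 and 24.3 FPKM in sgPLOD2, against 59.6, 66.7 and 57.4 FPKM in sgControl. Every sgPLOD2 library was below every sgControl library. The sgPLOD2 mean was 37.5% of the sgControl mean (23.0 ± 1.76 and 61.2 ± 4.89 FPKM; SD, n = 3 each). SLC3A2 changed by -1.38 ± 0.10 (SE; limma adjusted p = 6.32e-05) and was called under every alternative run. Its 178 tested neighbours within 5 Mb had a median change of 0.03.

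Promoter windows of SLC7A5 and SLC3A2 are shown because these genes make up 1 carrier and fell together. RefSeq windows (GRCh38.p14) run from 250 bases before to 50 bases after an annotated start, and each is written 5′ to 3′ along the gene. Capitals mark matches, on either strand, to the core letters TGATGNAA of the CARE element bound by ATF4, TGACNNNGC of the antioxidant response element bound by NRF2, or the E-box CACGTG bound by MYC and its partners. The SLC7A5 window is chr16:87869458-87869757 on the minus strand, and the SLC3A2 window, 1 of 3 for that gene, is chr11:62881449-62881748 on the plus strand.
SLC7A5: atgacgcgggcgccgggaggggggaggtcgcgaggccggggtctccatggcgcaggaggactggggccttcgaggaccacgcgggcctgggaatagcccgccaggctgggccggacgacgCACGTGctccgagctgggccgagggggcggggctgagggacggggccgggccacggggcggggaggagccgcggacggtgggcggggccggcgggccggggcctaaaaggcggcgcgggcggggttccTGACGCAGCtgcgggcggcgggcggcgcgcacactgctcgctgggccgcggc
SLC3A2: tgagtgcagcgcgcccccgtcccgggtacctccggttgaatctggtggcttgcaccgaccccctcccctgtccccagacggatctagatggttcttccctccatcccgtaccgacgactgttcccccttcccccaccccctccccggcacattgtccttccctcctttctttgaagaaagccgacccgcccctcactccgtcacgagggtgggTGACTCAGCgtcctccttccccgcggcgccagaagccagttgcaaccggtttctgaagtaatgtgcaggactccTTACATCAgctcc
In SLC7A5 the capitals are an E-box that begins 130 bases before the start and an antioxidant core that begins 2 bases before it. In SLC3A2 they are an antioxidant core that begins 37 bases before the start and a CARE core, read on the opposite strand, that begins 37 bases after it. The other 2 SLC3A2 windows held none of the 3 motifs. Of these, chr11:62855859-62856158 lies at the 5′ end of the deposited gene. The SLC3A2 window shown lies inside the gene.

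Relative to the heavy chain, SLC7A5 was lower and SLC7A11 higher in sgPLOD2. FPKM corrects for gene length, so these levels can be set against each other. The ratio of SLC7A5 to SLC3A2 was 3.16, 3.78 and 3.49 in sgPLOD2, against 5.46, 5.45 and 5.86 in sgControl. No sgPLOD2 library reached the sgControl range, and the difference of means was -2.11 with an exact 2-sided permutation p of 0.1, the smallest 3 against 3 allow. The ratio of SLC7A11 to SLC3A2 was 0.0397, 0.0651 and 0.0469 in sgPLOD2, against 0.0217, 0.0198 and 0.0165 in sgControl (exact permutation p = 0.1). SLC7A11 itself was not called, so the shift in that ratio went with the lower SLC3A2.

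Among the light chains that pair with SLC3A2, the mix changed. SLC7A5 made up 88.5% ± 0.70 of the summed FPKM of 6 light chain genes (SLC7A5, SLC7A6, SLC7A7, SLC7A8, SLC7A10 and SLC7A11) in sgPLOD2 and 98.0% ± 0.26 in sgControl (SD, n = 3 each; exact permutation p = 0.1). SLC7A6 held 8.09%, 8.69% and 7.37% in sgPLOD2, against 0.812%, 0.635% and 0.432% in sgControl. SLC7A11 held 1.27% ± 0.21 and 0.340% ± 0.058. The sum itself was 89.9 ± 5.22 FPKM in sgPLOD2 and 349 ± 19.98 FPKM in sgControl, and it was 3.93 ± 0.37 and 5.71 ± 0.23 times the FPKM of SLC3A2. The sum fell with SLC7A5, so a larger share need not mean more mRNA of that light chain. SLC7A6 mRNA did rise, while SLC7A11 was not called. SLC7A7 fell, with 1.92 ± 0.15 FPKM in sgPLOD2 and 3.70 ± 0.09 FPKM in sgControl (SD, n = 3 each).

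**Figure D2:**
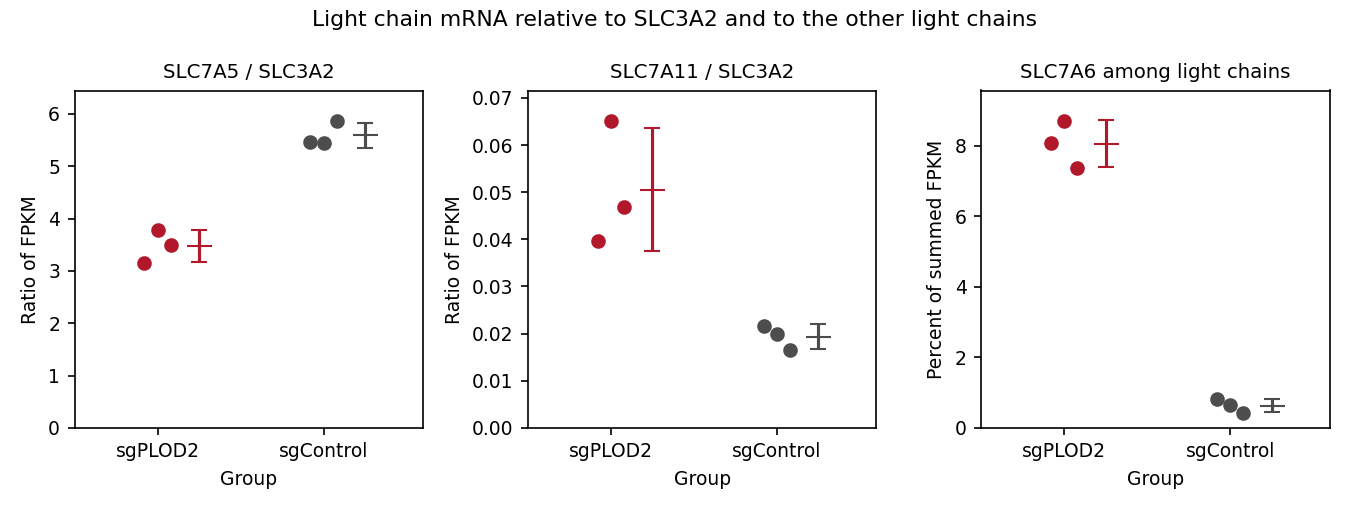
Ratios of SLC7A5 and of SLC7A11 to SLC3A2 FPKM, and the percent of summed light chain FPKM held by SLC7A6, in sgPLOD2 (red, left) and sgControl (grey). Points are libraries, and bars beside them give mean ± SD of 3. The groups do not overlap in any panel. The percent held by SLC7A6 depends also on the sum, which was lower in sgPLOD2.

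SLC7A6, which with SLC3A2 exchanges cationic for neutral amino acids, rose. SLC7A6 (ENSG00000103064; chromosome 16, 68264516 to 68301823, plus strand) had 6.84, 7.84 and 6.998 FPKM in sgPLOD2, against 2.70, 2.36 and 1.48 FPKM in sgControl. The lowest sgPLOD2 library was well above the highest sgControl library. The means were 7.23 ± 0.54 and 2.18 ± 0.63 FPKM (SD, n = 3 each), a ratio of 3.31, and the change was 1.39 ± 0.16 (SE; limma adjusted p = 0.000488). Its call held in each of the 17 alternatives that tested it. SLC7A6 lies on the same chromosome as SLC7A5, and its 76 tested neighbours had a median change of -0.03. SLC7A6OS, a protein-coding gene on the opposite strand, shares 17321 bases of its span and had 3.91 FPKM in sgPLOD2 and 3.76 FPKM in sgControl on average. Without a stated strand setting, reads of both genes could have been mixed.

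SLC43A1, also called LAT3, carries large neutral amino acids without the heavy chain, and was higher in sgPLOD2 at low levels. SLC43A1 (ENSG00000149150; chromosome 11, 57484534 to 57515780, minus strand) had 1.43, 1.54 and 1.91 FPKM in sgPLOD2, against 0.523, 0.456 and 0.417 FPKM in sgControl. The groups did not overlap, and the ratio of means was 3.50. On log2(FPKM + 1), which understates changes at such levels, the difference was 0.84 ± 0.09 (SE; limma adjusted p = 0.000485). Since the gene entered the test only through its sgPLOD2 libraries, it had to differ, and this p is no support for a rise. In the authors' deposited table, its log2 fold change was 1.71 ± 0.22 (SE), next to 1.63 ± 0.22 for SLC7A6. The fitted change was 1.497 on TPM and 1.61 with a pseudocount of 0.1.

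SLC7A11 stayed at about 1 FPKM in both groups. SLC7A11 (ENSG00000151012; chromosome 4, 138164097 to 138242349) had 0.941, 1.36 and 1.14 FPKM in sgPLOD2, against 1.29, 1.32 and 0.944 FPKM in sgControl. The ranges overlapped almost fully. The change was -0.03, with a 95% interval of -0.29 to 0.24 and a limma adjusted p of 0.861. It was called lower in 1 alternative, with the trend on GC content and transcript length removed (-0.48, adjusted p = 0.0132). Its 13 tested neighbours within 5 Mb had a median change of 0.34, and none of these 13 was called lower.

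The cationic carriers SLC7A1 and SLC7A2, which bring in arginine, lysine and ornithine, were each uncertain in another way. SLC7A1 (ENSG00000139514; chromosome 13, 29509414 to 29595688) had 16.6, 19.3 and 19.7 FPKM in sgPLOD2, against 12.8, 23.4 and 19.5 FPKM in sgControl. The sgControl libraries enclosed all sgPLOD2 libraries and varied by 29.1% of their mean. The change was 0.03, with a 95% interval of -0.45 to 0.51 (limma adjusted p = 0.903). The lowest value came from sgControl replicate 1, the library rich in mitochondrial transcripts, and without it the change was -0.20 (adjusted p = 0.182). SLC7A2 (ENSG00000003989; chromosome 8) had 0.234, 0.221 and 0.128 FPKM in sgPLOD2, against 0.105, 0.0895 and 0.0704 FPKM in sgControl. Both groups were far under 1 FPKM. SLC7A2 was tested only with no filter (change 0.13, adjusted p = 0.0604), and the authors' deposited table gave a log2 fold change of 1.04 ± 0.34 (SE) with an adjusted p of 0.00917.

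The neutral exchangers SLC1A4 and SLC1A5 differed in outcome, though neither moved far. SLC1A4 (ENSG00000115902; chromosome 2, 64988477 to 65023865), which exchanges alanine, serine, cysteine and threonine, had 9.82, 10.2 and 11.9 FPKM in sgPLOD2, against 12.1, 14.7 and 13.9 FPKM in sgControl. The highest sgPLOD2 library lay just below the lowest sgControl library. The means were 10.6 ± 1.08 and 13.6 ± 1.36 FPKM (SD, n = 3 each), a change of -0.33 ± 0.11 (SE; limma adjusted p = 0.0397). The call was lost without sgPLOD2 replicate 1 (0.125), sgPLOD2 replicate 2 (0.117), sgControl replicate 2 (0.11) or sgControl replicate 3 (0.106), with no filter (0.074) and under TPM (0.232). Removal of the trend on GC content and length gave -0.68. In the authors' deposited table its adjusted p was 0.0179.

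SLC1A5, the main glutamine exchanger of many tumour lines, was among the most abundant carriers in both groups. SLC1A5 (ENSG00000105281; chromosome 19, 46774883 to 46788594) had 105, 107 and 118 FPKM in sgPLOD2, against 147, 111 and 106 FPKM in sgControl. Apart from sgControl replicate 1, all libraries fell between 105 and 118 FPKM. The change was -0.12, with a 95% interval of -0.44 to 0.19 (limma adjusted p = 0.464), and 0.02 without sgControl replicate 1 (adjusted p = 0.841). SLC1A5 was the most abundant of the 10 in sgPLOD2: the ratio of SLC7A5 to SLC1A5 was 0.711, 0.742 and 0.719 there, against 2.22, 3.28 and 3.19 in sgControl. SLC1A3, which takes up glutamate and aspartate, had 0.345, 0.423 and 0.291 FPKM in sgPLOD2, against 0.190, 0.140 and 0.104 FPKM in sgControl. The groups did not overlap, at levels under the filter. With no filter the change was 0.24 (limma adjusted p = 0.0204), and the authors' deposited table gave 1.17 ± 0.31 (SE; adjusted p = 0.000647).

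**Figure D3:**
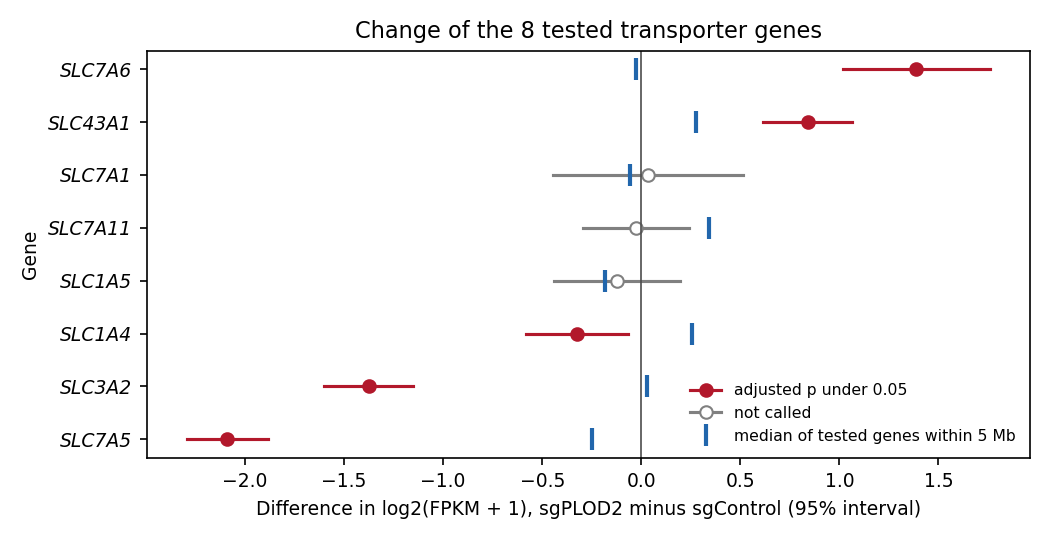
Change of the 8 tested transporter genes as sgPLOD2 minus sgControl on log2(FPKM + 1), with 95% intervals from limma. Red points passed an adjusted p of 0.05, open points did not, and blue ticks give the median change of tested genes within 5 Mb. The intervals of SLC7A1 and SLC1A5 include the tick of their region, and those of the other 6 genes do not.

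The order of levels was otherwise much alike. In sgPLOD2 it ran SLC1A5, SLC7A5, SLC3A2, SLC7A1, SLC1A4, SLC7A6, SLC43A1, SLC7A11, SLC1A3 and SLC7A2, and no neighbours in this order overlapped in their libraries. In sgControl it ran SLC7A5, SLC1A5, SLC3A2, SLC7A1, SLC1A4, SLC7A6, SLC7A11, SLC43A1, SLC1A3 and SLC7A2. There the ranges of SLC7A1 and SLC1A4 overlapped, as did those of SLC1A3 and SLC7A2. Summed over the 10 genes, FPKM was 252 ± 14.9 in sgPLOD2 and 560 ± 24.1 in sgControl (SD, n = 3 each). SLC7A5 accounted for most of that gap.

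In the authors' own comparison, 7 of the 10 genes had an adjusted p under 0.05 (4 higher, 3 lower), where 35.5% of the 22870 genes with an adjusted p did, 18.5% higher and 17% lower. Those 22870 genes reach beyond the 10469 tested on FPKM to genes under 1 FPKM. Most of the 10 members lie above that level, so the 2 shares are not of like genes. Their difference was not tested. The authors' deposited table gave SLC7A5 a log2 fold change of -2.20 ± 0.13 (SE) and SLC3A2 one of -1.51 ± 0.14 (SE). It did not call SLC1A5 (adjusted p = 0.323), SLC7A11 (0.672) or SLC7A1 (0.809). The genes it called beyond those called on FPKM were the weakly expressed SLC1A3 and SLC7A2.

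The pattern of SLC7A5 over the 6 libraries was followed most closely by SLC37A1 (Pearson r = 0.99957), LRRC45 (0.99957) and HELZ2 (0.99952). This r is a description over 6 libraries in 2 groups, and 241 tested genes had an r above 0.99. With 2 groups this far apart, any gene with a wide gap between them reaches a high r.

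CARE cores were found near starts of members that fell and of members that did not. RefSeq windows were matched by symbol for 8 members, 16 windows in all, and none was used for SLC7A11 and SLC7A2. At least 1 window held a CARE core in 5 of the 8 (SLC3A2, SLC1A4, SLC7A1, SLC1A5 and SLC1A3), and 5 of 16 windows did, where 3.62% of all 35116 windows did. An antioxidant core stood in 6 of the 16 windows (13.3% of all windows) and an E-box in 3 (7.26% of all windows). Genes with several windows had more chances to hold a match. A short stretch around some of the matches is shown for the members beyond the LAT1 pair, called or not, to let the letters be compared.
SLC1A4 (CARE core, called lower): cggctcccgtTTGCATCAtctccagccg
SLC7A1 (CARE core, not called): ggcgcactgcTGATGAAAcctggcgccg
SLC1A5 (CARE core, not called): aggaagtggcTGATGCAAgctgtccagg
SLC7A6 (antioxidant core, called higher): cggcggcgggTGACGTGGCggggcggggc
SLC43A1 (E-box, called higher): gcgggcgagtCACGTGcgcgtgaaac
The SLC1A4 match lies at chr2:64989392-64989399, the SLC7A1 match at chr13:29595674-29595681, the SLC1A5 match at chr19:46784904-46784911, the SLC7A6 match at chr16:68264497-68264505 and the SLC43A1 match at chr11:57515809-57515814. The SLC1A4 match reads on the opposite strand and ends on the annotated start of its window. Those of SLC7A1 and SLC1A5 begin 7 bases after and 97 bases before the start of their windows. SLC1A4 and SLC1A5 have several windows. Those at the 5′ end of the deposited gene, chr2:64988229-64988528 and chr19:46788545-46788844, held none of the motifs. The SLC1A5 match is in the window chr19:46784765-46785064, inside the gene. The SLC7A5 window held no CARE core, which says only that these letters are not in this window.

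**Figure D4:**
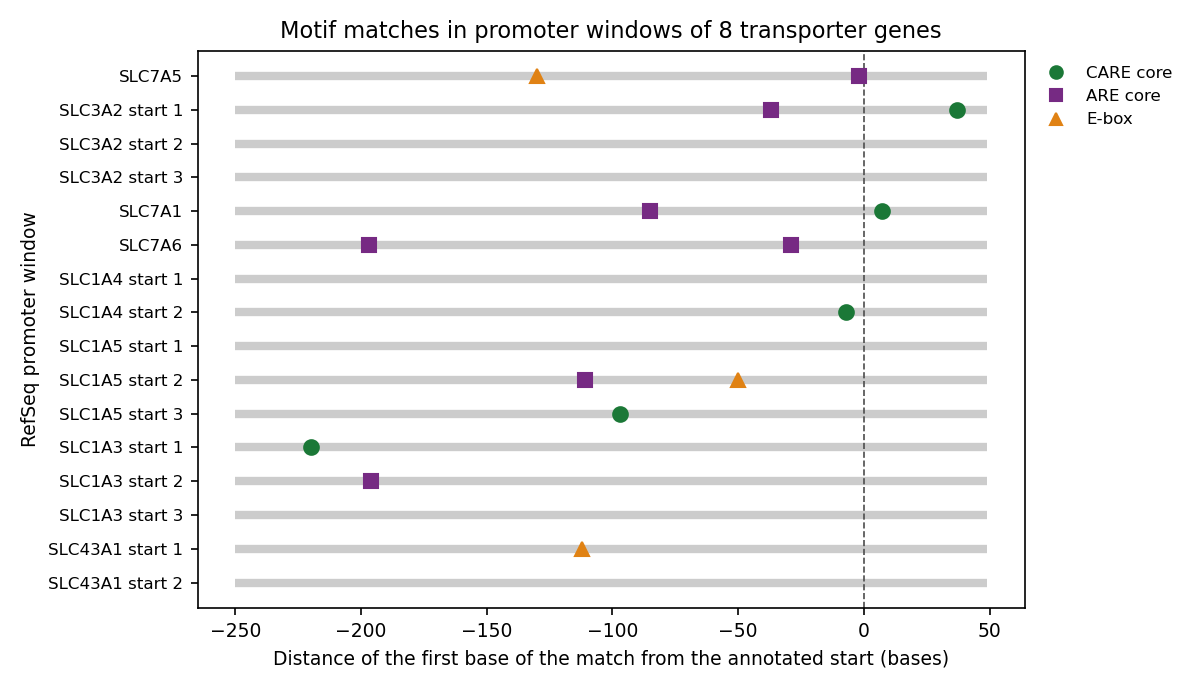
Positions of CARE cores (green circles), antioxidant cores (purple squares) and E-boxes (orange triangles) in the 16 RefSeq promoter windows of 8 transporter genes, as distance in bases from the annotated start. Grey bars are the windows. CARE cores stand in 1 window each of SLC3A2, SLC7A1, SLC1A4, SLC1A5 and SLC1A3.

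The factor ATF4 and several of its other targets were lower as well. ATF4 mRNA had 110, 96.1 and 96.3 FPKM in sgPLOD2, against 207, 216 and 233 FPKM in sgControl. Of 20 genes of the ATF4 arm, 19 were tested, with 9 lower and 3 higher, where 23.5% of all tested genes were lower and 29.5% higher. The list holds ATF4 itself and kinases of the pathway besides targets, and the split by direction was not tested. The median change was -0.33, beside 0.06 over all tested genes. DDIT4, an mTORC1 inhibitor, had 46.4 ± 5.25 FPKM in sgPLOD2 and 280 ± 30.5 FPKM in sgControl (SD, n = 3 each). SESN2, a leucine sensor that restrains mTORC1, had 3.92 ± 0.17 and 10.55 ± 1.33 FPKM (change -1.23, limma adjusted p = 0.000172). EIF2AK1, the heme-regulated kinase of the pathway, rose by 0.64 (limma adjusted p = 0.00708). After removal of the trend on GC content and length that became 0.38 (adjusted p = 0.0567). Not every target was lower. The asparagine synthetase gene ASNS, named after its values had been seen, had 12.3 ± 1.11 FPKM in sgPLOD2 and 12.9 ± 0.23 FPKM in sgControl (limma adjusted p = 0.517). VLDLR, among the 3 called higher, rose by 0.35 (limma adjusted p = 0.0189), a call lost in some alternatives. The others called higher were the kinase genes EIF2AK1 and EIF2AK4, and the call of EIF2AK4 was also lost in some alternatives. NUPR1 was under the filter and is named after its values had been seen. It had 1.31, 0.785 and 1.17 FPKM in sgPLOD2, against 0.175, 0.0947 and 0.215 FPKM in sgControl.

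NRF2 targets, the other group known to share a regulator with SLC7A11, were called in both directions. Of 12 tested genes, NFE2L2 and KEAP1 included, 2 were higher and 2 lower, where 52.9% of all tested genes were called. The median change was 0.00. NFE2L2, the NRF2 gene, had 7.49, 8.81 and 8.47 FPKM in sgPLOD2, against 10.6, 5.66 and 5.13 FPKM in sgControl, and was not called (limma adjusted p = 0.408). Here too sgControl replicate 1 lay apart, and without it NFE2L2 was called higher (change 0.53, adjusted p = 0.00473). ME1, a source of NADPH, rose to 16.6 ± 0.79 FPKM in sgPLOD2, against 8.99 ± 0.60 FPKM in sgControl (change 0.82, limma adjusted p = 0.000356, from 0.47 to 1.00 over the alternatives). GCLC was the other gene called higher (0.43, limma adjusted p = 0.00501). OSGIN1 (-0.46) and GCLM (-0.25) were called lower (limma adjusted p = 0.0155 and 0.0419), and both lower calls were lost in some alternatives.

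**Figure D5:**
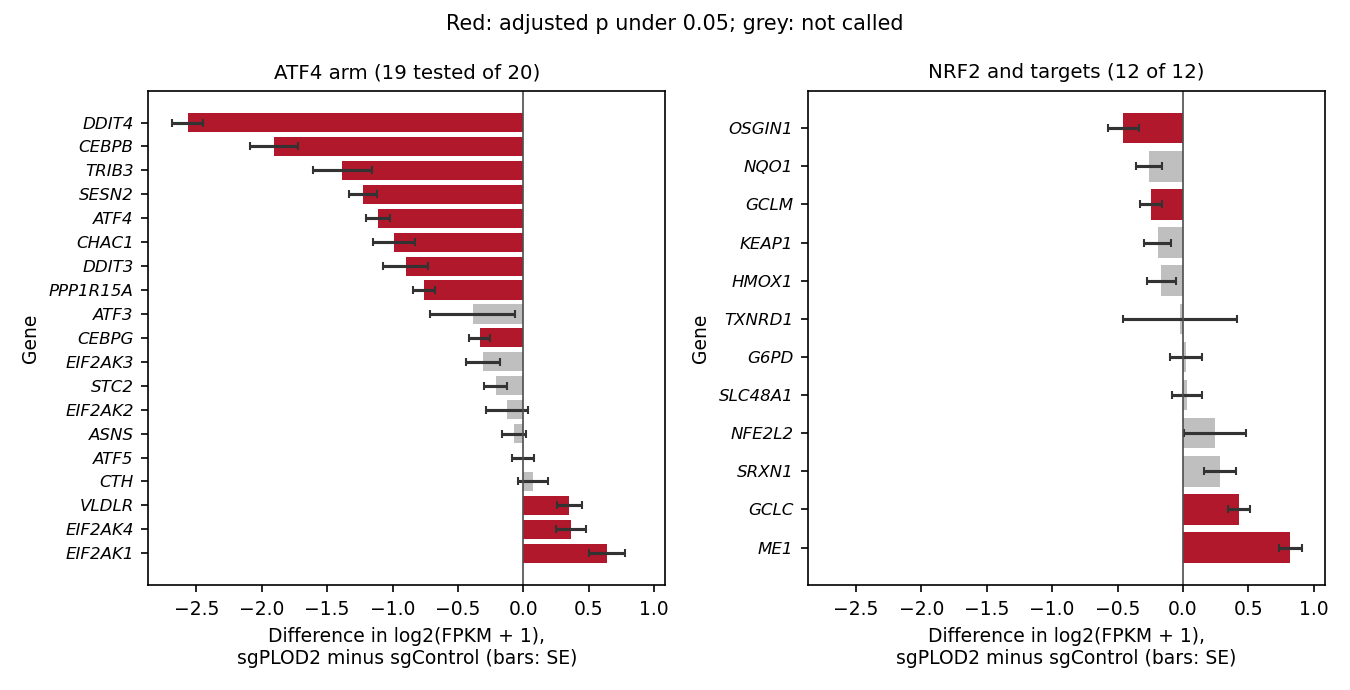
Change of the tested genes of the ATF4 arm (left) and of NRF2 and its targets (right), as sgPLOD2 minus sgControl on log2(FPKM + 1). Bars are fitted changes, whiskers their SE, red an adjusted p under 0.05 in limma and grey not called. In the ATF4 arm 9 bars are red on the lower side and 3 on the higher, and in the NRF2 panel 2 and 2.

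Genes of cystine and glutathione use were also called in both directions. Of 12 genes, 11 were tested, with 4 higher and 5 lower, where 52.9% of all tested genes were called, and the median change was -0.13. CD44, a surface protein known to stabilise xCT in some tumours, had 25.9 ± 3.35 FPKM in sgPLOD2 and 13.97 ± 2.13 FPKM in sgControl (SD, n = 3 each; limma adjusted p = 0.0021), a change of 0.85 that ran from 0.48 to 1.01 over the alternatives. CBS, of cysteine synthesis, rose by 0.54 (limma adjusted p = 0.00199; 0.37 to 0.82 over the alternatives). GGT1, which acts on extracellular glutathione, had 7.16, 7.31 and 7.42 FPKM in sgPLOD2, against 58.4, 48.1 and 48.9 FPKM in sgControl. The glutathione reductase gene GSR and the thioredoxin gene TXN fell, with changes of -0.53 and -0.63 (limma adjusted p = 0.00163 and 0.0101), and that of TXN ran from -0.73 to -0.36 over the alternatives.

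Other carriers of these families were mostly silent. Of 11 further SLC7, SLC3 and SLC43 genes, 3 were tested and 1 fell: SLC7A7, the y+LAT1 light chain, had 1.91, 1.77 and 2.07 FPKM in sgPLOD2, against 3.65, 3.80 and 3.65 FPKM in sgControl (change -0.69, limma adjusted p = 0.000671, from -1.23 to -0.65 over the alternatives). SLC7A7 and SLC7A6, both light chains of system y+L, thus went in opposite directions. SLC43A3, a nucleobase carrier, had 27.0 ± 1.73 and 29.8 ± 1.96 FPKM in sgPLOD2 and sgControl (SD, n = 3 each) and was not called, except with chromosome medians removed (-0.33). Of 16 other SLC1, SLC6, SLC16 and SLC36 genes, 4 were tested, with 2 called higher, 0 lower and a median of 0.17. Over all tested genes 52.9% were called, 29.5% higher and 23.5% lower, so the counts of these short lists are no result about them. Both called genes, SLC36A1 and SLC36A4, averaged under 1 FPKM in sgControl and passed the filter only through sgPLOD2, so their calls are descriptions. The lysosomal and surface proton-coupled carrier SLC36A1 had 1.87, 2.35 and 2.30 FPKM in sgPLOD2, against 0.756, 0.761 and 0.879 FPKM in sgControl. SLC1A1, the other glutamate carrier detected, had 2.18 ± 0.41 and 2.20 ± 0.29 FPKM. The glycine carrier SLC6A9, under the filter and named after its values had been seen, had 0.0135, 0.0229 and 0.0258 FPKM in sgPLOD2, against 1.37, 1.24 and 1.22 FPKM in sgControl.

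On the side of amino acid use and sensing, the number of genes called was no higher than over all tested genes. Of 27 genes of amino acid sensing by mTORC1, 21 were tested, with 3 higher and 8 lower (median -0.18). Of all tested genes 52.9% were called, 29.5% higher and 23.5% lower. The count over both directions is thus close to the background and is no result about the list. By direction, lower calls were more frequent and higher calls less frequent than those shares, a split that was not tested. RRAGB, called higher, averaged 0.867 FPKM in sgControl and passed the filter only through sgPLOD2. RHEB, the GTPase that activates mTORC1, had 35.9 ± 3.28 FPKM in sgPLOD2 and 65.3 ± 1.78 FPKM in sgControl (limma adjusted p = 0.000385), and the lysosomal scaffold gene LAMTOR4 fell by 0.79 (limma adjusted p = 0.00115; changes of -0.85 to -0.50 over the alternatives). Of 22 genes of branched-chain amino acid and arginine use, 17 were tested, with 3 higher and 4 lower (median 0.08), again beside 52.9%. ASS1, of arginine synthesis, had 14.9, 13.5 and 14.8 FPKM in sgPLOD2, against 7.23, 6.51 and 7.29 FPKM in sgControl (limma adjusted p = 0.00021). BCKDK, an inhibitor of branched-chain keto acid breakdown, fell by 0.61 (limma adjusted p = 0.00217; changes of -0.68 to -0.36 over the alternatives).

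Of 9 MYC and HIF factors, 7 were tested, with 2 higher and 2 lower (median 0.02), beside 52.9% of all tested genes called. EPAS1, which encodes HIF-2α, had 22.9, 24.99 and 25.8 FPKM in sgPLOD2, against 11.2, 13.3 and 11.3 FPKM in sgControl (change 0.98, limma adjusted p = 0.000282). HIF1A had 37.7 ± 1.84 FPKM in sgPLOD2 and 0.420 ± 0.115 FPKM in sgControl (SD, n = 3 each), and it passed the filter only through sgPLOD2. The ratio of its means was 89.8. Whether the cells of the groups differ in more than the guide was not tested. MYC had 12.5, 1.01 and 24.4 FPKM in sgPLOD2, against 9.98, 0.776 and 0.742 FPKM in sgControl, and was not called (limma adjusted p = 0.283). Any part of these factors in the levels of SLC7A5 was not tested.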

How the data were processed

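RNA of 6 libraries of 786-O cells was measured, 3 sgPLOD2 and 3 sgControl. The submitters' processing notes list CASAVA, HISAT2 2.1.0, StringTie 1.3.4 and GRCh38, with no roles. Annotation release, counting tool and strand setting: not given in the sources used here. Per the file headers, the authors deposited 1 FPKM value per gene and library, with no recorded scaling between libraries. The same deposited table held the authors' comparison: a mean normalized count signal, a log2 fold change with SE, a test score and p-values. Its direction, sgPLOD2 over sgControl, was checked against the FPKM. Absolute depth is unknown, so no counting interval is given.

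The test took log2(FPKM + 1) of every gene averaging 1 FPKM or more over the 6 libraries (10469 genes). It was limma (version 3.58.1, R 4.3.3) with an intensity trend, 2-sided, with Benjamini-Hochberg adjustment over those genes and a threshold of 0.05. Ratios were compared by exact permutation in scipy 1.17.1. Simulated data had the means and residual spread of the 10469 genes, with independent normal noise. Of these genes, 67 were shifted by 0.5, 67 by 1 and 66 by 2 (log2). The steps recovered 35.8%, 95.5% and 100% of them, and 3.75% of calls were false. In the real data 52.9% of genes were called, far more than were shifted here, so these shares need not hold there. Chromosomes and strands came from GENCODE release 29 (GRCh38). Promoter windows came from RefSeq (GRCh38.p14). The GC and length alternative used mgcv 1.9.3.

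Members and lists were chosen with earlier results of these data known. The genes eligible to be named were the 10 members, PLOD2, ATF4, NFE2L2, MYC, up to 3 called genes per direction and list with the smallest adjusted p, and the 3 genes most like SLC7A5. Those of them left out of the text were left out after their values had been seen, mostly where alternatives ended the call. Alternatives were other pseudocounts, filters, scalings and variance models, removal of chromosome medians or of the GC and length trend, a replicate block and leaving out each library. TPM without mitochondrially encoded genes was chosen after seeing the data.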

Additional observations from a re-analysis of the deposited data

How the results depend on the processing

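SLC7A5, SLC3A2 and SLC7A6 kept their direction and call under every alternative that tested them, and so did the call of SLC43A1, which rests on the filter, and the directions of the 3 tested ratios. The cause of the changes below was not tested, except that a minimum of 5 FPKM tests fewer genes. The fall of SLC1A4 was no longer called with no filter (-0.33), under TPM (-0.22) and under TPM without mitochondrially encoded genes (-0.26), and leaving out 1 library gave -0.40 to -0.27. SLC7A11 turned to 0.0687 under TPM and 0.0331 under TPM without mitochondrially encoded genes, was called at -0.48 after removal of the GC and length trend, and ranged from -0.109 to 0.0442 with 1 library left out. SLC7A1 turned to -0.0297 under median-of-ratios scaling and -0.28 after removal of the GC and length trend, and ranged from -0.20 to 0.21 with 1 library left out. SLC1A5 turned to 0.0065 under TPM, 0.0601 under quantile normalization, 0.0510 with chromosome medians removed and 0.12 after removal of the GC and length trend, and ranged from -0.21 to 0.0209 with 1 library left out. Beyond the members, VLDLR of the ATF4 arm turned to -0.20 after removal of the GC and length trend, ASNS to 0.0517 and 0.0091 under TPM with and without mitochondrially encoded genes, and SLC1A1 to 0.10 and 0.0623 under the same and 0.10 with chromosome medians removed, and it ranged from -0.10 to 0.0830 with 1 library left out.

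A minimum of 5 FPKM left 1361 genes called higher, against 3084, and 0 members higher, since it did not test SLC7A6, SLC43A1 and SLC7A11. For the other lists, that minimum left 0 of the further SLC7, SLC3 and SLC43 genes lower, 0 of the SLC1, SLC6, SLC16 and SLC36 carriers higher, 1 NRF2 gene higher and 1 lower, 2 cystine and glutathione genes higher, 1 mTORC1 sensing gene higher and 1 MYC or HIF factor lower. With no filter, 1 of the SLC1, SLC6, SLC16 and SLC36 carriers was lower. Under TPM, 1 NRF2 gene was lower, 3 cystine and glutathione genes lower, 5 mTORC1 sensing genes higher and 5 lower, 5 genes of branched-chain amino acid and arginine use higher and 0 MYC or HIF factors lower. TPM without mitochondrially encoded genes left 1 NRF2 gene lower, 5 mTORC1 sensing genes higher and 5 lower, and 1 MYC or HIF factor lower. Quantile normalization gave 2 further SLC7, SLC3 and SLC43 genes lower, 1 other carrier higher and 1 ATF4 arm gene higher. With chromosome medians removed these lists had 3 SLC7, SLC3 and SLC43 genes lower, 1 other carrier higher, 0 NRF2 genes lower, 2 cystine and glutathione genes higher and 3 lower, and 1 gene of branched-chain amino acid and arginine use higher. After removal of the GC and length trend there were 2 SLC7, SLC3 and SLC43 genes lower, 1 other carrier higher, 1 ATF4 arm gene higher and 2 genes of branched-chain amino acid and arginine use lower. With 1 library left out, the counts ranged from 1 to 2 other carriers higher, 1 to 3 ATF4 arm genes higher, 0 to 2 NRF2 genes lower, 3 to 4 cystine and glutathione genes lower, 5 to 8 mTORC1 sensing genes lower, 2 to 4 genes of branched-chain amino acid and arginine use lower and 1 to 2 MYC or HIF factors lower.

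Same-numbered libraries deviated together with r of 0.0135, 0.1352 and -0.0491, so the numbers were not taken as pairs. The fit with a replicate block called 2984 genes higher and 2335 lower, with 2 members higher and 3 lower, and left 1 NRF2 gene and 1 MYC or HIF factor lower. Ratios compared within numbers had an exact permutation p of 0.25, the smallest that 3 pairs allow. Without depth in the table, the reliability of the genes under 1 FPKM, SLC1A3 and SLC7A2, could not be judged from counting error.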
